A study of Mus musculus with 42 samples.

Results

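Monocytes leave the blood along gradients of chemokines, small secreted proteins read by receptors on the monocyte surface. The genes described here are 9 such genes: the CC chemokine ligands Ccl2, Ccl7, Ccl12, Ccl8, Ccl3 and Ccl4, the membrane-anchored ligand Cx3cl1, and the receptors Ccr2 and Cx3cr1. They were chosen by name, by matching the Ensembl identifiers of both deposited count tables to these symbols. All 9 were found among the 36604 genes listed for joint soft tissue and the 54752 listed for lymph nodes, and all 9 passed the filter on low counts that left 16149 and 18312 tested genes.

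The study concerns tissue repair after surgery at the joint and the lymph nodes that drain it, in wild-type C57BL/6 mice whose ages are not given in the labels. All 42 libraries were made from total RNA. Joint soft tissue labelled RST was sampled on days 3, 7, 14, 21 and 35, and joint soft tissue labelled LST on day 35 only, with 4 libraries in each of these 6 groups. What the codes RST and LST stand for is not stated in the labels. Lymph nodes labelled NoImplant, ContraImplant and Implant were sampled on days 7 and 14, with 3 libraries in each of these 6 groups. The column headers of the node counts name Implant nodes as implant with surgery and ContraImplant nodes as implant with no surgery. They name NoImplant nodes as no implant and no surgery. Implant and NoImplant nodes thus differ in both implant and surgery, which cannot be told apart. The sample descriptions of the Implant and ContraImplant nodes carry shared animal numbers, so these nodes come in pairs from the same mice, and the NoImplant nodes come from other mice. The descriptions also carry the letter L for every ContraImplant node and R for every Implant and NoImplant node. If these letters give the body side, side and label cannot be told apart wherever ContraImplant nodes are compared with the others. LST libraries exist for day 35 only, so label and day cannot be told apart where an earlier RST day is set against them.

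Ccr2 is the receptor through which classical, inflammatory monocytes are released from bone marrow and enter inflamed tissue, and Ccl2, Ccl7 and Ccl12 are its ligands in the mouse. Ccl8 of the mouse acts mainly through another receptor, Ccr8, while Ccl3, which acts on Ccr1 among other receptors, and the related Ccl4 attract monocytes, macrophages and lymphocytes. Cx3cl1 (fractalkine) is displayed on endothelial and other cells, and its receptor Cx3cr1 is high on patrolling monocytes and many tissue macrophages.

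The ligands are told apart by the spacing of a pair of cysteines near the start of the mature protein, which gave the CC and CX3C families their names. The stretches below are the coding sequence around these cysteines, from GENCODE M21 transcripts on mm10, with the cysteine codons in capitals. They show that the 5 CC genes listed share the adjacent codons and differ around them, which bears on whether reads could be assigned to each gene.
Ccl2: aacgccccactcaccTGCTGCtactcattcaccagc
Ccl7: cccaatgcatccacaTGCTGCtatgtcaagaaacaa
Ccl12: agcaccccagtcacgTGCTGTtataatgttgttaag
Ccl8: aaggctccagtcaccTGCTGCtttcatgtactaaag
Ccl4: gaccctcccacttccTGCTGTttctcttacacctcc
Cx3cl1: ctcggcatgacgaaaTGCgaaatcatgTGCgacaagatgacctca

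In the CC genes shown 0 codons lie between the cysteine codons, and in Cx3cl1 3 codons do. The Ccl2, Ccl7, Ccl12 and Ccl8 stretches lie in this order on the plus strand of chromosome 11, at chr11:82036491-82036526, chr11:82046523-82046558, chr11:82102619-82102654 and chr11:82116041-82116076. That of Ccl4 lies further along the same chromosome and strand, at chr11:83663467-83663502. That of Cx3cl1 is at chr8:94778036-94778080 on the plus strand, and the receptor genes Ccr2 (chr9:124101950-124113557, plus strand) and Cx3cr1 (chr9:119901616-120069879, minus strand) are both on chromosome 9. All the stretches shown are exonic and coding. Over the aligned coding sequences the highest identity among the CC genes was 70.5%, between Ccl12 and Ccl8, and the lowest was 59.3%, between Ccl7 and Ccl4. The longest run of identical bases shared by any pair was 23 bases, between Ccl2 and Ccl7. No exon of the members overlapped another annotated gene except in Cx3cr1, where 78 of 4505 exon bases lie opposite the antisense gene Gm33858.

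The joint libraries held 17842090 to 28024003 counts (median 22819245) and the node libraries 22041900 to 44371001 (median 26008540). No library was a copy of another: the closest replicates differed by a chi-square of 8.27 per degree of freedom in joint and 11.6 in nodes. Whether each joint library is a different animal is not stated, and the joint p-values therefore speak of the spread among these libraries, which could be partly technical. Levels are given as CPM, counts scaled to a common library total with an adjustment for library composition, separately in each tissue. Joint tissue held much muscle: the summed level of 7 skeletal muscle genes was 152816 to 165161 CPM in LST and 60327 to 81204 CPM in RST day 3 libraries. In bulk tissue, fewer cells of a type and less RNA per cell cannot be told apart.

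In joint soft tissue the Ccr2 ligands and Ccr2 itself were highest on day 3 and stepped down to near the LST level by day 35, while Ccl8 and Cx3cl1 had their highest mean on day 7. Against LST day 35, 8 of 9 members were higher on RST day 3, when 38.6% of all tested genes were higher past the threshold. All 9 were higher on days 7, 14 and 21, against 41%, 33.4% and 21.7% of genes, and 2 of 9 on day 35, against 2.92% of genes. The count on day 21 was 8 without RST day 21 replicate 2. Cx3cl1, the member lost there, also lost its call without RST day 21 replicate 4 or LST replicate 2, 3 or 4. In a fit of RST day 21 and LST alone the count was 5, with Cx3cl1 losing its call and Ccl12, Ccl3 and Ccl4 below the filter on low counts and so not tested. On day 35 it was 4 in such a fit. The threshold throughout was a Benjamini-Hochberg adjusted p of 0.05 in edgeR's quasi-likelihood test, fitted over all libraries of a tissue. The median log2 fold change of the members was 5.83, 4.98, 3.86, 3.10 and 1.26 on days 3, 7, 14, 21 and 35, and that of all tested genes was 0.0858 on day 3 and 0.0163 on day 35. These 5 comparisons share the LST libraries, in which each of the 6 CC ligands had at most 14 counts. These ligands passed the filter through RST libraries, so their number is no support for a difference.

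**Figure D1:**
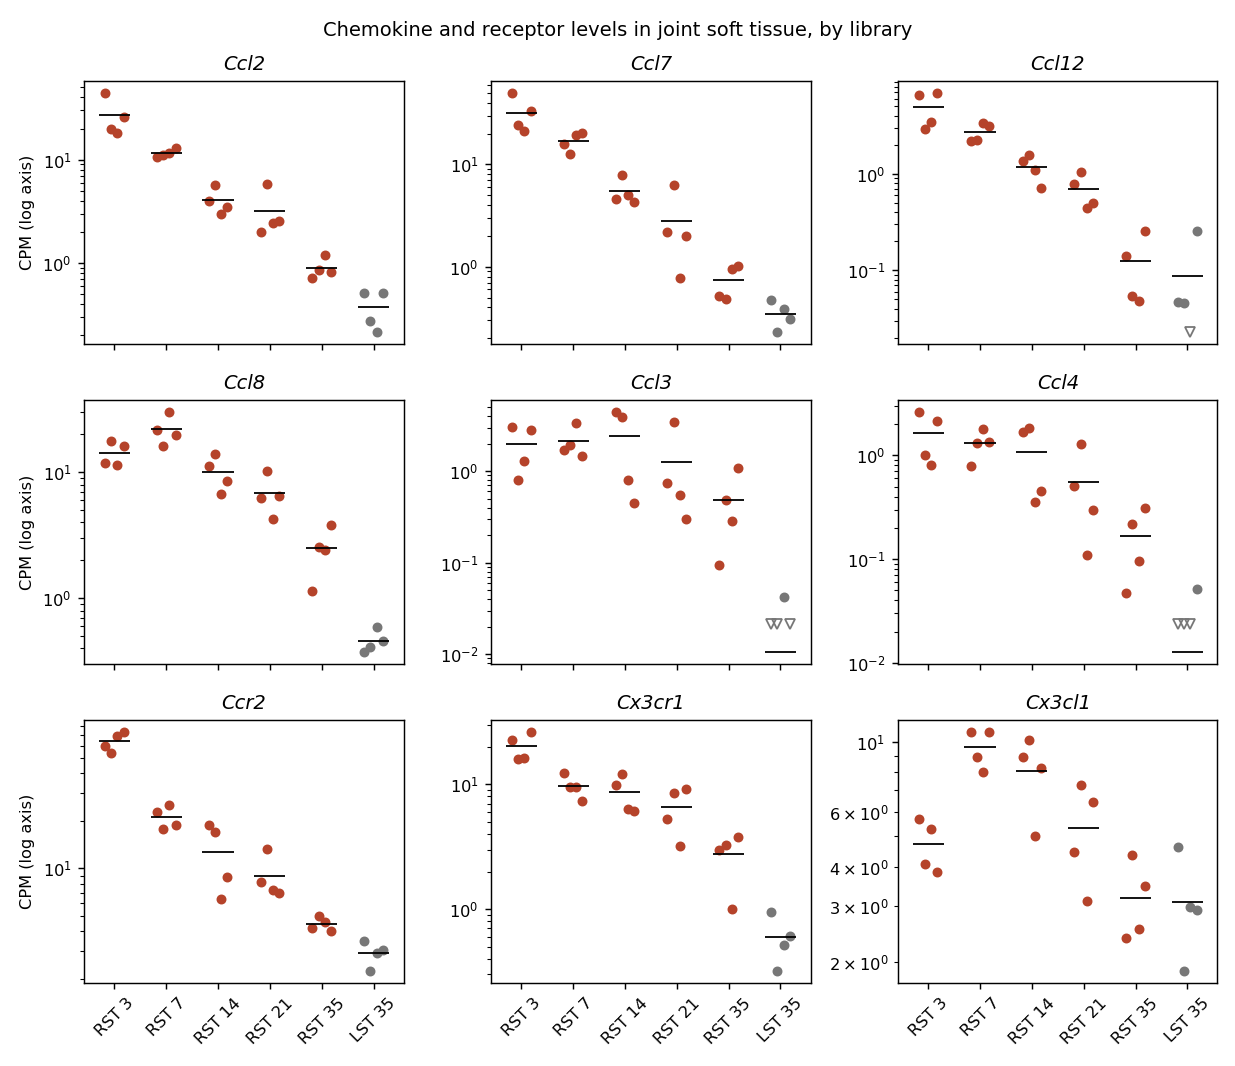
Level of each gene in every joint soft tissue library, in CPM on a log axis, by group (red, RST days 3 to 35; grey, LST day 35; line, group mean; open triangles at the bottom, libraries with 0 counts). Ccl2, Ccl7, Ccl12, Ccr2 and Cx3cr1 have their highest group mean on day 3, Ccl8 and Cx3cl1 on day 7, and the 4 Ccl3 libraries of day 14 split into 2 high and 2 low.

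Ccl2, the main ligand of Ccr2, was at 44.2, 19.7, 18.2 and 26.1 CPM in the 4 RST day 3 libraries, at 10.6, 11.03, 11.5 and 12.97 CPM on day 7, and at 4.02, 5.64, 3.01 and 3.46 CPM on day 14. It was at 1.98, 5.77, 2.41 and 2.53 CPM on day 21, at 0.712, 0.863, 1.19 and 0.821 CPM on day 35, and at 0.518, 0.274, 0.213 and 0.512 CPM in LST. Each group lay below the one before it with no shared range, apart from days 14 and 21, which overlapped. The log2 fold change against LST was 6.16 ± 0.39 (SE; adjusted p = 6.5e-11) on day 3, 4.93 ± 0.39 on day 7, 3.43 ± 0.41 on day 14 and 3.10 ± 0.43 on day 21. On day 35 the ranges still did not overlap, as 10.1% of all genes were higher without overlap, but the difference of 1.26 ± 0.51 missed the threshold (adjusted p = 0.25), and it passed in a fit of these 2 groups alone (adjusted p = 0.048; 0.048 to 0.51 over 14 alternatives).

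Ccl7, the neighbouring gene and a second ligand of Ccr2, ran close to Ccl2. It was at 32.1 ± 12.96 CPM (SD, n = 4) on day 3, 16.9 ± 3.45 on day 7, 5.44 ± 1.67 on day 14, 2.81 ± 2.40 on day 21, 0.747 ± 0.283 on day 35 and 0.347 ± 0.104 in LST. The groups from day 14 to day 35 overlapped their neighbours, and the others did not. Its log2 fold change against LST was 6.51 ± 0.50 (SE; adjusted p = 4.2e-10) on day 3 and 3.05 ± 0.56 (adjusted p = 0.00028) on day 21. The ratio of Ccl7 to Ccl2 counts was 1.13 to 1.28 in the day 3 libraries and 1.14 to 1.67 on day 7.

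Ccl12, a Ccr2 ligand that mice have beside Ccl2, had the same order of days. It was at 6.59, 2.91, 3.42 and 6.86 CPM on day 3 and at 2.20 to 3.37 CPM on day 7. On day 14 it was at 0.720 to 1.58 CPM, by day 21 at 0.439 to 1.05 CPM and by day 35 at 0.0478 to 0.257 CPM. In LST it was at 0 to 0.256 CPM, from 0 to 5 counts a library. Days 3 and 7 overlapped, as did days 14 and 21, and days 35 and LST. Its log2 fold change against LST was 5.83 ± 0.52 (SE; adjusted p = 2.7e-09) on day 3, and its level on day 35 was not distinguishable from LST at this depth.

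Ccl8 followed another course. It was at 11.8, 17.7, 11.5 and 16.3 CPM on day 3, at 21.9, 16.1, 30.0 and 19.9 CPM on day 7, and at 11.3, 13.95, 6.69 and 8.59 CPM on day 14. It was at 6.23, 10.3, 4.28 and 6.44 CPM on day 21, at 1.14, 2.53, 2.44 and 3.85 CPM on day 35, and at 0.377, 0.410, 0.596 and 0.460 CPM in LST. In order of mean level the groups were day 7, day 3, day 14, day 21, day 35 and LST. The first 4 overlapped in turn, and days 21, 35 and LST were separate from each other. Its log2 fold change against LST was 4.94 ± 0.38 (SE; adjusted p = 4.2e-10) on day 3 and 5.55 ± 0.38 (adjusted p = 1.3e-10) on day 7. Ccr8, its main receptor, was at 0 counts in 4 of the 6 joint groups and at no more than 0.121 CPM in any joint library.

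Ccr2 marks classical monocytes and was the member with the most counts on day 3. It was at 59.5, 54.0, 68.5 and 73.5 CPM on day 3, at 22.6, 17.7, 25.2 and 18.9 CPM on day 7, and at 18.9, 17.0, 6.38 and 8.77 CPM on day 14. It was at 8.15, 13.3, 7.24 and 6.99 CPM on day 21, at 4.18, 4.96, 4.54 and 4.003 CPM on day 35, and at 3.49, 2.23, 2.90 and 3.02 CPM in LST. The day 3 libraries stood well above all others, days 7, 14 and 21 overlapped in turn, and day 35 lay just above LST without overlap. Its log2 fold change against LST was 4.46 ± 0.29 (SE; adjusted p = 7.2e-11) on day 3, 2.86 ± 0.28 on day 7 and 1.63 ± 0.28 on day 21. On day 35 it was 0.60 ± 0.30 (adjusted p = 0.42; 0.046 in a fit of these 2 groups alone, and 0.046 to 0.73 over 14 alternatives).

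Cx3cr1, the fractalkine receptor, was at 22.7, 16.0, 16.1 and 26.5 CPM on day 3, at 7.42 to 12.3 on day 7, 6.16 to 12.1 on day 14 and 3.24 to 9.17 on day 21. On day 35 it was at 2.99, 3.29, 1.004 and 3.80 CPM, and in LST at 0.942, 0.319, 0.511 and 0.614 CPM. Day 3 stood apart from day 7, days 7 to 35 overlapped in turn, and every day 35 library was above every LST library. The log2 fold change against LST was 5.09 ± 0.41 (SE; adjusted p = 8.3e-10) on day 3, 4.02 ± 0.41 on day 7, 3.85 ± 0.42 on day 14 and 3.47 ± 0.42 on day 21.

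Its ligand Cx3cl1 had the smallest fold changes of the members against LST on days 3 to 21. It was at 5.66, 4.08, 5.30 and 3.85 CPM on day 3, at 10.7, 8.97, 8.02 and 10.8 CPM on day 7, and at 8.95, 10.2, 5.01 and 8.23 CPM on day 14. It was at 4.47, 7.30, 3.13 and 6.44 CPM on day 21, at 2.37, 4.37, 2.53 and 3.49 CPM on day 35, and at 4.62, 1.87, 2.98 and 2.92 CPM in LST. In order of level every group overlapped the next, and days 35 and LST covered nearly the same range. The log2 fold change against LST was 1.63 ± 0.27 (SE; adjusted p = 1e-05) on day 7 and 1.39 ± 0.27 (adjusted p = 0.00019) on day 14. On day 21 it was 0.80 ± 0.28 (adjusted p = 0.036), which became 0.094 in a fit of these 2 groups alone and 0.19 without RST day 21 replicate 2 (0.00853 to 0.19 over 14 alternatives). The call was lost in 6 of the 14, also without RST day 21 replicate 4 (0.10) and without LST replicate 2 (0.13), 3 (0.077) or 4 (0.076). On day 3 the log2 fold change was 0.60 ± 0.28 (adjusted p = 0.056), and it passed when libraries were scaled by their totals alone (adjusted p = 0.0024; 0.0024 to 0.19 over 14 alternatives).

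Ccl3 and Ccl4, a related pair of macrophage inflammatory proteins, had few counts and an uneven spread between replicates. Ccl3 was at 3.02, 0.796, 1.28 and 2.79 CPM on day 3, at 1.69, 1.94, 3.37 and 1.48 CPM on day 7, and at 4.40, 3.93, 0.798 and 0.450 CPM on day 14. It was at 0.736, 3.47, 0.548 and 0.297 CPM on day 21 and at 0.0949, 0.485, 0.287 and 1.08 CPM on day 35. In order of mean level each RST day overlapped the next, while all day 7 libraries were above all day 35 libraries. Days 14 and 21 each held both high and low libraries. RST day 14 replicates 1 and 2, the high pair, also had the higher summed level of the inflammatory inducers Il1a, Il1b, Il6, Tnf and Ifng (17.4 and 24.1 against 5.67 and 4.41 CPM) and the lower muscle level (102149 and 91453 against 125687 and 129304 CPM), whose part in the split was not tested. Ccl4 ran from 0.812 to 2.60 CPM on day 3 and from 0.0475 to 0.308 CPM on day 35.

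Each had a single count over the 4 LST libraries, so only a counting ratio is given. The ratio to LST was 165 (95% interval 29.2 to 6546) on day 3 and 40.9 (6.91 to 1658) on day 35 for Ccl3, and 138 (24.5 to 5495) and 14 (2.10 to 595) for Ccl4. These intervals cover counting error only. Both passed the threshold on days 3, 7, 14 and 21 and neither on day 35, where Ccl3 was at an adjusted p of 0.18 in edgeR and 0.00496 in DESeq2 (0.00496 to 0.56 over 13 alternatives).

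**Figure D2:**
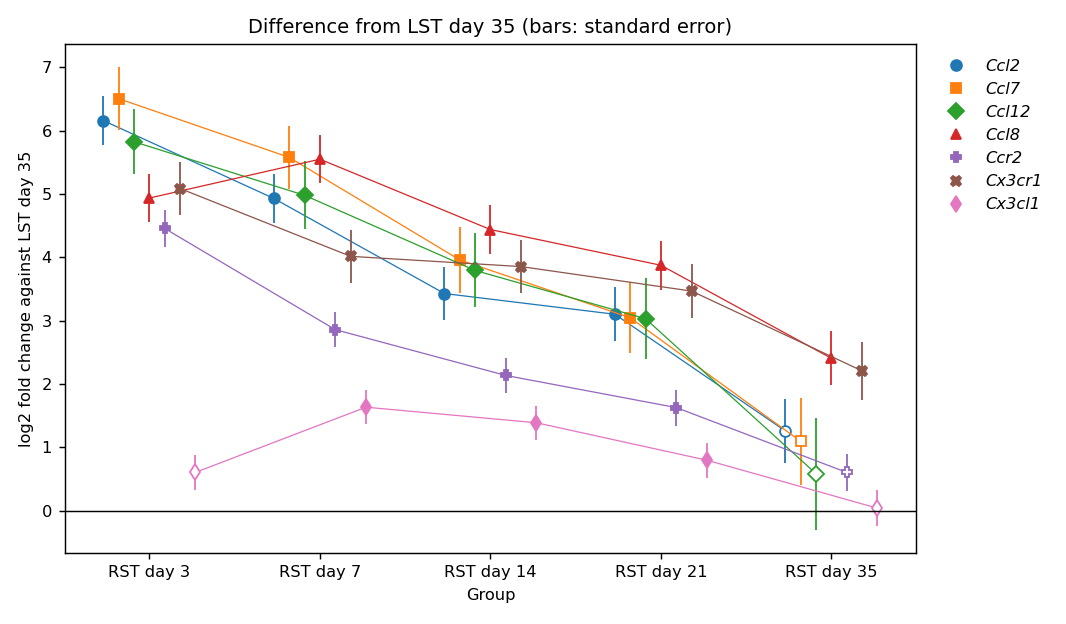
Log2 fold change of 7 genes in RST against LST day 35 by day, with bars of 1 SE (filled points, edgeR adjusted p under 0.05; open points, not). Ccl3 and Ccl4 are left out because LST held a single count of each; on day 35 only Ccl8 and Cx3cr1 are filled, and Cx3cl1 is open on days 3 and 35.

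The steps between sampled days were then compared within RST, where the label is shared. Between days 3 and 7, 5 of 9 members fell and 1 rose, against 22.5% and 18.7% of all tested genes. Ccr2 fell by 1.60 ± 0.24 (log2, SE; adjusted p = 1.9e-05), Ccl2 by 1.23 ± 0.27 (adjusted p = 0.00094) and Cx3cr1 by 1.07 ± 0.30 (adjusted p = 0.0073). Ccl7 fell by 0.93 ± 0.33 (adjusted p = 0.028) and Ccl12 by 0.85 ± 0.32 (adjusted p = 0.036), and both calls were lost under scaling by library totals (0.092 and 0.11) and without RST day 3 replicate 1, RST day 3 replicate 4, RST day 7 replicate 1 or RST day 7 replicate 2 (0.053 to 0.15 for Ccl7 and 0.090 to 0.14 for Ccl12). Cx3cl1 rose by 1.03 ± 0.26 (adjusted p = 0.0031). Ccl8, at a higher mean on day 7, differed by 0.61 ± 0.26 (adjusted p = 0.064), within the threshold in 4 of 14 alternatives (0.025 to 0.24 over all of them).

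Between days 7 and 14, 5 of 9 members fell, against 18% of all tested genes, and none rose. Ccl7 fell by 1.62 ± 0.35 (adjusted p = 0.0012), Ccl2 fell by 1.501 ± 0.29 (adjusted p = 0.00044), Ccl12 fell by 1.19 ± 0.35 (adjusted p = 0.01), and Ccl8 fell by 1.11 ± 0.27 (adjusted p = 0.0026). Ccr2 fell by 0.72 ± 0.24 (adjusted p = 0.022), a call lost in a fit of these 2 groups alone (0.079) and without RST day 14 replicate 3 (0.089), RST day 14 replicate 4 (0.085) or RST day 7 replicate 3 (0.075). Cx3cr1, Cx3cl1, Ccl3 and Ccl4 did not pass.

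Between days 14 and 21, 0 of 9 passed in edgeR and 0 in DESeq2, while 0.737% of all genes passed. At an unadjusted p under 0.05 there were 2 of 9, against 25.7% of all genes. The count rested on RST day 21 replicate 2: without it, 7 of 9 passed, all lower on day 21, when 4466 of all genes passed in place of 119, among them Ccl7 (-1.70), Ccl3 (-2.17) and Ccl2 (-0.79). Between days 21 and 35, 6 of 9 fell, against 3.89% of all genes: Ccl12 by 2.45 ± 0.60 (adjusted p = 0.028), Ccl7 by 1.95 ± 0.49 (0.033), Ccl2 by 1.84 ± 0.37 (0.014), Ccl8 by 1.47 ± 0.31 (0.016), Cx3cr1 by 1.26 ± 0.35 (0.044) and Ccr2 by 1.02 ± 0.27 (0.041). That count was 0 without RST day 21 replicate 2, without RST day 35 replicate 1 or without RST day 35 replicate 2, 1 without RST day 35 replicate 3, and 0 in a fit of these 2 groups alone. Over all genes 641 passed, and 35, 67, 52, 41 and 0 in these 5 refits.

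RST day 21 replicate 2 was the highest of its group in 8 of 9 members, the exception being Cx3cr1. Its 10 classical monocyte markers summed to 928 CPM against 290 to 610 in the other day 21 libraries, its neutrophil markers to 132 against 16.0 to 67.2 CPM, and its inflammatory inducers to 30.2 against 3.40 to 4.36 CPM. Its skeletal muscle genes were the lowest, at 119395 against 148988 to 153492 CPM. The part of these differences in the steps around day 21 was not tested.

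On day 35, where RST and LST share the day, Ccl8 and Cx3cr1 were the members that passed. Ccl8 was at 2.49 ± 1.11 CPM (SD, n = 4) in RST and 0.461 ± 0.0965 CPM in LST, a log2 fold change of 2.40 ± 0.43 (SE; adjusted p = 0.0018). Cx3cr1 was at 2.77 ± 1.22 and 0.597 ± 0.261 CPM, a log2 fold change of 2.21 ± 0.45 (SE; adjusted p = 0.0067). Both passed in every alternative run, at 2.11 to 2.65 for Ccl8 (adjusted p up to 0.012) and 1.997 to 2.51 for Cx3cr1 (up to 0.041). Whether they differed more than Ccl2 or Ccr2 was not tested. On this day 0 of 7 skeletal muscle genes passed, with sums of 148088 to 151022 CPM in RST and 152816 to 165161 CPM in LST, while classical monocyte markers summed to 224 to 475 against 69.0 to 99.9 CPM and macrophage markers to 144 to 277 against 106 to 149 CPM.

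The mix of members differed between days. The ratio of Ccl8 to Ccl2 counts was 0.268 to 0.896 in the day 3 libraries and 1.46 to 2.60 on day 7, without overlap, and stayed above the day 3 range in every later RST library. The ratio of Ccl8 to Ccr2 counts was 0.168 to 0.328 on day 3 and 0.908 to 1.19 on day 7, then 0.273 to 0.962 by day 35 and 0.108 to 0.206 in LST. The ratio of Cx3cr1 to Ccr2 counts was 0.236 to 0.381 on day 3 and 0.5256 to 0.986 on day 14, then 0.221 to 0.949 by day 35 and 0.143 to 0.270 in LST. These ratios compare genes within a library and are descriptions, with no test. Exon lengths differ (1138 bases in Ccl2 and 511 in Ccl8), so a count ratio of 1 does not mean equal levels.

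**Figure D3:**
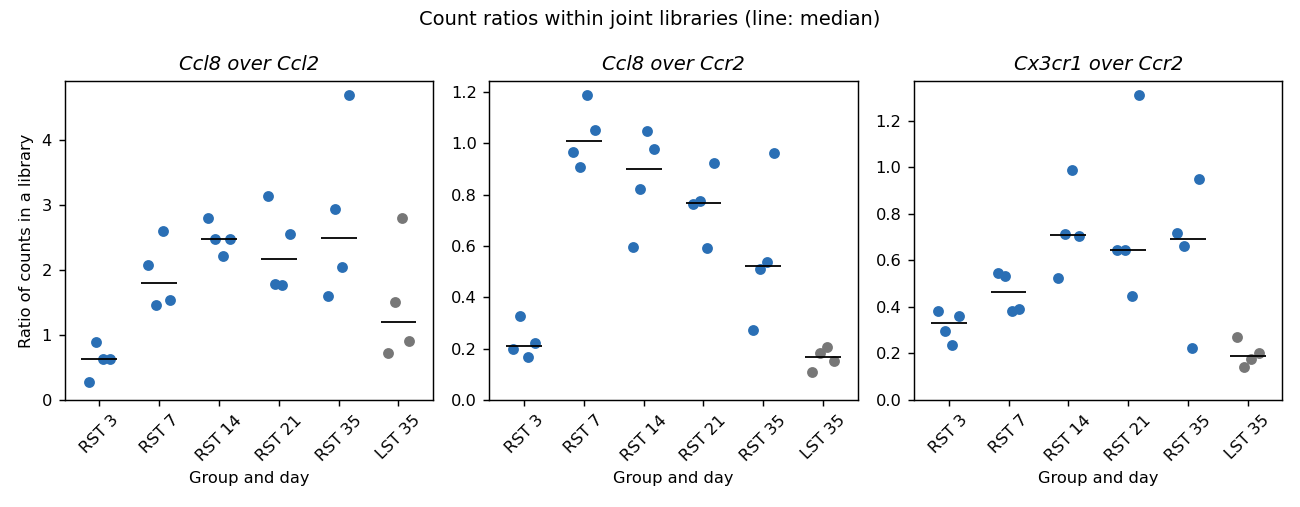
Ratio of counts of Ccl8 to Ccl2, Ccl8 to Ccr2 and Cx3cr1 to Ccr2 in each joint soft tissue library, by RST day and for LST day 35 (line, group median). The Ccl8 to Ccl2 ratio is lower in all 4 day 3 libraries than in all later RST libraries. The genes differ in length, so a ratio of 1 does not mean equal levels.

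Levels of different genes can be compared only per length of transcript, as CPM per kilobase of exon. On this scale Ccl7 led on RST day 3 at 40.1 ± 16.2 (SD, n = 4), followed by Ccl8 at 28.0 ± 6.08 and Ccl2 at 23.8 ± 10.5, with the SDs of all 3 overlapping. Ccr2, at 9.45 ± 1.30, and Ccl12, at 9.21 ± 3.86, came next, and Cx3cl1 was the last at 1.20. From day 7 onward Ccl8 had the highest mean, at 43.0 ± 11.5 CPM per kilobase on day 7, and it was also the highest in LST at 0.902, where Cx3cl1 came second at 0.788.

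Other genes of the pathway went both ways early, when 38.6% of all genes were higher and 30.1% lower. Among other CC receptors on day 3 against LST, Ccr1, a receptor of Ccl3 (log2 fold change 5.75 ± 0.53), Ccr3 (3.53) and Ccr7 (3.35) were higher, and Ccr10 was lower (-1.14). Of 8 other CC ligands measured of 12 listed, 4 were higher, led by the myeloid chemokines Ccl9 (4.12 ± 0.31) and Ccl6 (3.68 ± 0.30), and Ccl11 (-0.58) and Ccl25 (-0.55) were lower. Ctss, the cathepsin S protease that can release Cx3cl1 from membranes, was higher by 5.49 ± 0.36, and the sheddases Adam17 and Adam10 by 0.78 and 0.77. Of the 5 atypical receptors, which bind chemokines without attracting cells, 3 were lower: Ackr4 (-1.31), Ccrl2 (-1.15) and Ackr2 (-0.61). Scaling by library totals alone moved the median of all genes on this day from 0.0858 to 0.610, a shift nearly as large as the differences of Ccl11, Ccl25 and Ackr2, whose direction under that scaling was not tested.

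Between days 3 and 7 most atypical receptors moved against the Ccr2 ligands. Of these receptors 4 of 5 rose, against 18.7% of all tested genes. They were led by Ackr4 (2.95 ± 0.39) and Ackr2 (1.66 ± 0.24), which binds and clears inflammatory CC chemokines. The median summed level of the 5 was 33.3 CPM on day 3 and 54.7 CPM on day 7, then 63.7, 64.5 and 51.0 CPM on days 14, 21 and 35. In LST it was 42.2 CPM, and the LST range (35.0 to 45.9 CPM) overlapped that of RST day 35 (43.3 to 64.5 CPM). A link to the ligand levels was not tested. Ackr2 was at 1.014 ± 0.3001 CPM (SD, n = 4) on day 3, 3.22 ± 0.437 on day 7, 3.50 ± 0.913 on day 35 and 1.56 ± 0.177 in LST, and its day 35 difference from LST was 1.16 ± 0.24 (log2, SE). On day 35 Ackr4 was also higher (1.54 ± 0.35), as were Ctss (2.02 ± 0.32) and the macrophage elastase Mmp12 (6.33 ± 0.55).

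Markers of the cells that carry the receptors moved as well, on a day 3 when 38.6% of all genes were higher than in LST and 30.1% lower. On day 3 all 10 classical monocyte markers were higher than in LST, among them Fcgr1 (5.77), Itgam (4.78), Lyz2 (4.49) and Ly6c2 (3.82), and their summed level was 1268 to 1978 against 69.0 to 99.9 CPM. Of 8 patrolling monocyte markers 4 were higher and Nr4a1, a factor these cells need, was lower (-2.52). The summed level of the 8 was lower in RST day 3 (299 to 431 CPM) than in LST (493 to 780 CPM). That of the skeletal muscle genes was lower too (60327 to 81204 against 152816 to 165161 CPM). How far the patrolling sum reflects these monocytes or other cells was not tested. Of 13 macrophage markers 12 were higher, led by Trem2 (7.24), and 5 of 9 measured neutrophil markers were higher. Between days 3 and 7, when 22.5% of all genes fell and 18.7% rose, 4 of 10 classical monocyte markers fell, among them Chil3 (-3.74) and Ly6c2 (-2.36), and 1, Vcan (1.05), rose. Of 13 macrophage markers 7 fell, and 6 of 7 endothelial markers rose, as Cx3cl1 did. The endothelial sum was 217 to 260 CPM on day 3 and 299 to 347 CPM on day 7, and its part in the Cx3cl1 step was not tested.

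Across the 24 joint libraries, which share the time course and the muscle share, the genes whose log2 CPM was most like that of each member were found by correlation. Pearson's r was 0.987 for Ccl2 with Slfn2, 0.992 for Ccl7 with Tcirg1, 0.967 for Ccl12 with the Fc receptor Fcgr1, 0.980 for Ccl8 with the lectin Clec4n and 0.982 for Ccr2 with Slfn1. For Cx3cr1 it was 0.968 with Mpeg1, a gene of macrophages, for Ccl4 0.973 with Shisa5, for Ccl3 0.948 with Pfkp and 0.945 with the interleukin-1 antagonist Il1rn. For Cx3cl1 it was lower, 0.929 with Acsf2 and 0.923 with the endothelial gene Plvap. With group means removed, Ccl3 and Ccl4 were the most alike of the 36 member pairs in joint (r = 0.863), and Cx3cr1 with Cx3cl1 reached 0.684 and Ccl2 with Ccl7 0.696. Pairs that are neither neighbours nor ligand and receptor were as high, such as Ccl3 with Ccr2 (0.719) and Ccl7 with Ccl4 (0.703). Ccl2 with its receptor Ccr2 was at 0.521. These values are descriptions.

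Lymph nodes showed another balance of members, with Ccl8 far above the rest. Ccl8 was at 57.7 to 208 CPM in the 18 node libraries, against at most 30.0 CPM in joint, while Ccl2 and Ccl7 were at 1.53 to 12.5 CPM. Joint and node levels were scaled separately and are only set side by side. Per kilobase, mean Ccl8 was 138 to 357 over the 6 groups, and the next member, Ccl12, was 9.47 to 12.5. The ratio of Ccl8 to Ccl2 counts was 13.4 to 63.3 in nodes, and Ccr8, nearly undetected in joint, was at 2.68 to 6.88 CPM.

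**Figure D4:**
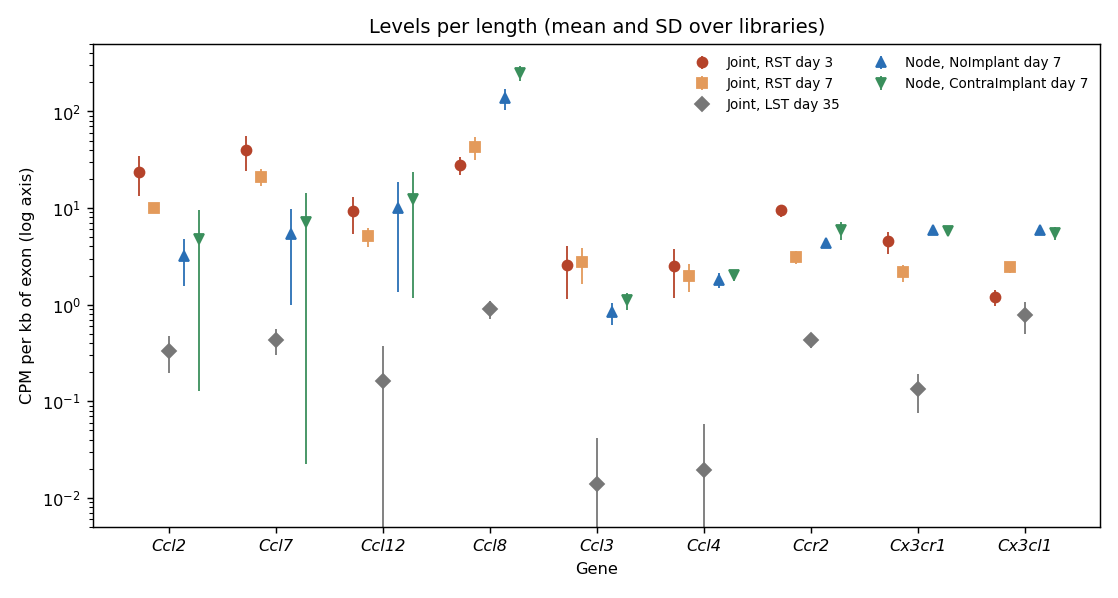
Mean CPM per kilobase of exon with SD, on a log axis, for the 9 genes in RST day 3, RST day 7, LST day 35, NoImplant day 7 and ContraImplant day 7 (bars that reach 0 are cut at the axis). Joint and node values were scaled separately; Ccl8 leads in both node groups and on RST day 7, and Ccl7 on RST day 3.

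No member passed the threshold in any of the 8 node comparisons in edgeR, where between 0% and 5.97% of all genes did. The shares that passed were 0.0437% for Implant against NoImplant, 0.715% for Implant against ContraImplant and 0% for ContraImplant against NoImplant on day 7, and 5.97%, 0% and 0% on day 14. Between days they were 0% in Implant and 0.0164% in NoImplant nodes. At an unadjusted p under 0.05, the day 7 counts of members were 0, 2 and 1 of 9, against 18.2%, 20.6% and 7.37% of all genes. On day 14 they were 2, 1 and 3 of 9, against 28.4%, 8.46% and 5.8% of genes. Between days they were 2 of 9 in Implant nodes, against 8.55%, and 5 of 9 in NoImplant nodes, against 18.9%. DESeq2 called 2 members for Implant against ContraImplant on day 7, among 1073 genes, and 0 in the other 7 comparisons. With 3 libraries a group, this does not show that the members did not differ.

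Ccl8 gave the clearest separation. It was at 62.7, 57.7 and 90.7 CPM in NoImplant, 156, 116 and 116 CPM in ContraImplant and 95.4, 73.2 and 74.5 CPM in Implant nodes on day 7. On day 14 it was at 102, 85.5 and 112 CPM in NoImplant, 181, 158 and 208 CPM in ContraImplant and 93.7, 159 and 91.2 CPM in Implant nodes. ContraImplant nodes were above all NoImplant nodes on both days, a separation upward that 5.94% and 5.36% of all genes showed. These groups also differ in the letter, L or R, of their descriptions. They were above the Implant nodes of the same mice in all 3 pairs on day 7 and in 2 of 3 on day 14, where replicate 2 had 158 and 159 CPM.

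ContraImplant exceeded NoImplant by 0.87 ± 0.22 (log2, SE) on each day, with an adjusted p of 0.65 and an unadjusted p of 0.0012 on both. Implant was below ContraImplant by a log2 difference of -0.67 ± 0.22 on day 7 (adjusted p = 0.12) and -0.67 ± 0.22 on day 14 (adjusted p = 0.59). DESeq2 gave 0.037 on day 7, and the mean of both days, a comparison chosen after seeing the data, gave -0.67 ± 0.15 with an adjusted p of 0.027 (0.027 to 0.32 over the 13 alternatives of day 7 and 0.027 to 0.97 over those of day 14). That mean, the edgeR tests of each day and DESeq2 all treat the nodes of a mouse as independent. With the mouse as a block, the Ccl8 difference passed on neither day. The mean of both days for ContraImplant against NoImplant gave 0.87 ± 0.15 with an adjusted p of 0.42. The comparisons share the ContraImplant libraries.

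Ccr2 in nodes was at 46.9, 43.1 and 30.4 CPM in ContraImplant and 28.4, 22.8 and 25.6 CPM in Implant on day 7, with no overlap, as 11.3% of all genes were lower without overlap. Its log2 difference of -0.64 ± 0.22 had an adjusted p of 0.13 in edgeR, 0.086 with the mouse as a block and 0.047 in DESeq2 (0.047 to 0.43 over 13 alternatives). On day 14 ContraImplant (42.5, 43.9 and 30.1 CPM) and Implant (31.2, 32.8 and 26.5 CPM) overlapped. NoImplant nodes ranged over 27.3 to 32.7 CPM on day 7 and 28.3 to 56.9 CPM on day 14.

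Macrophage markers moved in the same nodes. In Implant against ContraImplant on day 7, 7 of 13 macrophage markers were lower, against 0.541% of all genes, among them Folr2 (-1.93 ± 0.31), Timd4 (-1.15), Lyve1 (-0.998) and C1qb (-0.92), and their summed level was 697 to 857 against 1263 to 1785 CPM. In all, 131 genes passed in that comparison and 19 with the mouse as a block. Of 10 classical monocyte markers 1, Itgam (-1.30), was lower. The part of the macrophage markers in the Ccl8 and Ccr2 values was not tested.

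**Figure D5:**
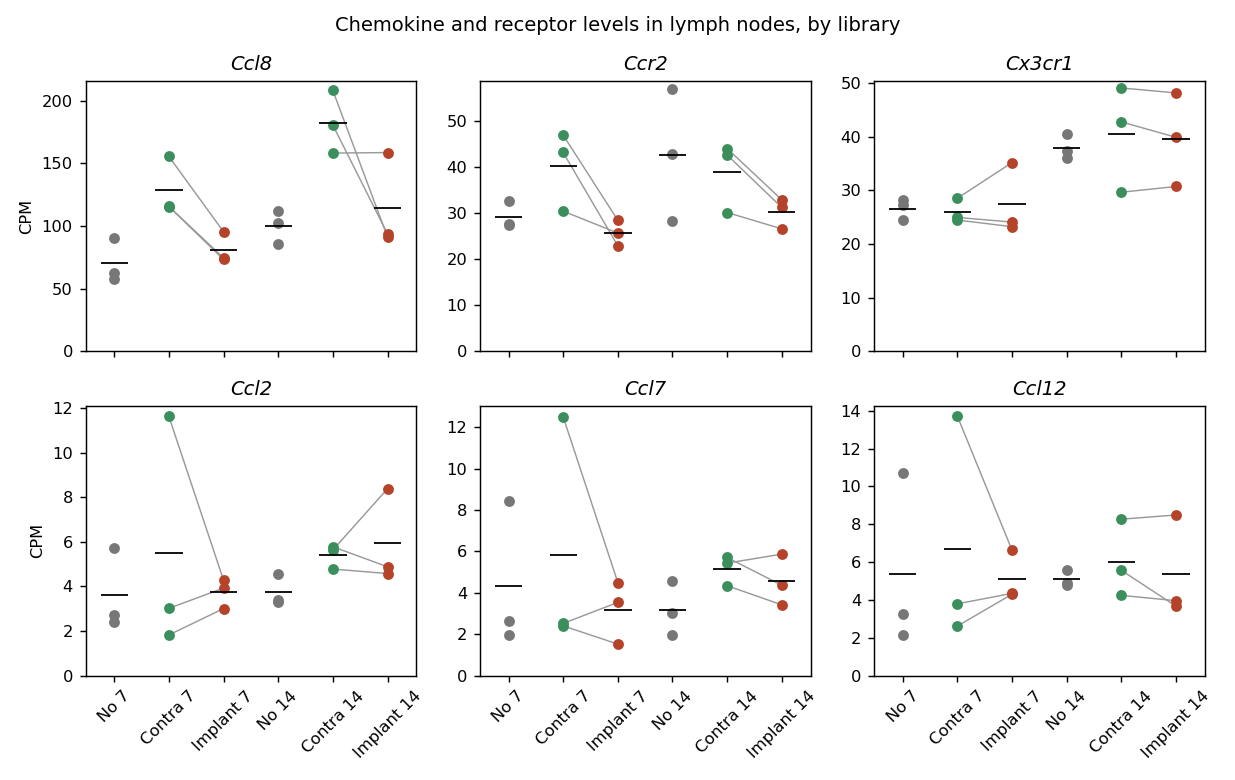
CPM of 6 genes in each lymph node library on linear axes from 0 (grey, NoImplant; green, ContraImplant; red, Implant; thin lines join nodes of the same mouse; bars, means of 3). Ccl8 is higher in ContraImplant than in NoImplant nodes on both days, and ContraImplant day 7 replicate 1 stands high in Ccl2, Ccl7 and Ccl12.

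Among the 3 Ccr2 ligands in nodes, Ccl2 separated some groups, and single libraries stood high on day 7. Ccl2 was at 3.31, 4.56 and 3.40 CPM in NoImplant, 4.78, 5.63 and 5.78 CPM in ContraImplant and 4.58, 8.38 and 4.88 CPM in Implant nodes on day 14. ContraImplant and Implant nodes were thus all above NoImplant nodes, as 5.36% and 16.8% of all genes were. Implant nodes of day 14 were also all above those of day 7 (4.29, 3.01 and 3.93 CPM), as 9.67% of genes were. In edgeR none of these Ccl2 differences passed. ContraImplant against NoImplant was 0.52 ± 0.51 (log2, SE; adjusted p = 0.89, unadjusted 0.32). Implant against NoImplant was 0.66 ± 0.51 (0.41, unadjusted 0.21), and Implant day 14 against day 7 was 0.67 ± 0.51 (0.78, unadjusted 0.21). On day 7, ContraImplant replicate 1 had 11.6 CPM of Ccl2, 12.5 of Ccl7 and 13.7 of Ccl12, against 1.83 to 3.80 CPM in the other ContraImplant nodes of that day. NoImplant replicate 3 was also high, at 5.73, 8.45 and 10.7 CPM against 1.96 to 3.28 in its group. ContraImplant replicate 1 also had the same inducers at a summed 43.0 CPM, against 21.01 and 23.9 CPM in the others. Within groups, these 3 ligands moved together over the 18 node libraries (r = 0.836 for Ccl2 with Ccl7, 0.895 for Ccl2 with Ccl12 and 0.845 for Ccl7 with Ccl12), as did Ccl3 with Ccl4 (0.821), while Ccl8 with Ccr2 gave -0.0637.

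The other node members overlapped in most comparisons. Cx3cr1 was at 23.2 to 35.2 CPM on day 7 and 29.6 to 49.1 CPM on day 14, and its NoImplant nodes of day 14 (36.0, 40.5 and 37.3 CPM) were all above those of day 7 (24.4, 28.2 and 27.2 CPM), as 12.2% of genes were. Cx3cl1 was at 18.0 to 27.9 CPM in all 18 nodes. Its Implant nodes of day 7 (19.98, 18.1 and 19.9 CPM) were all below the NoImplant nodes (21.6, 22.5 and 25.1 CPM), as 14.9% of genes were, and below the Implant nodes of day 14 (25.2, 24.1 and 21.2 CPM). Ccl3 was at 0.449 to 2.78 CPM and Ccl4 at 0.542 to 3.81 CPM, with the highest of both in NoImplant day 14 replicate 2. Neither test of whether the Implant difference, from NoImplant or from ContraImplant, changed between days called a member in edgeR (0 of 9 each, with 0 at an unadjusted p under 0.05, against 5.03% and 1.82% of genes, and 0 in DESeq2).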

How the data were processed

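RNA libraries of joint soft tissue and lymph nodes were made with the NEBNext Ultra II kit, per the labels' protocols, and reads were processed with fastp and STAR on mm10, per the submitters' processing notes. No source used here names the counting program, its annotation or its strand setting. The deposited values are raw counts per Ensembl gene, in 1 table per tissue. Symbols, positions and exon lengths were taken from GENCODE M21 (36591 of 36604 joint and 54723 of 54752 node identifiers matched).

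In R 4.3.3, edgeR 4.0.16 (filterByExpr with a minimum count of 10, TMM scaling, quasi-likelihood F test, 1 fit per tissue, Benjamini-Hochberg adjustment within each of 20 comparisons) gave the tests. The SE is the log2 fold change over the root of F. Log2 CPM used a prior count of 2. The script was tested on simulated counts. Alternatives were size factors, library totals, no filter, a replicate block, 2-group fits, DESeq2 1.42.0 and leaving out each replicate.

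All 9 members are described, with up to 4 genes of each pathway or marker list by smallest adjusted p and the 3 genes most like each member. Other listed genes named beside these were chosen after their values were seen. Members and lists were chosen with earlier results of these data known. Same-numbered Implant and ContraImplant nodes carry the same animal number, and their deviations from group means correlated at 0.106 to 0.352 on day 7 and 0.179 to 0.402 on day 14. Some items are not reported here.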

Additional observations from a re-analysis of the deposited data

Results flagged for a closer look

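In 4 of the 54 groups of 4 joint libraries examined (9 genes in 6 groups), the highest library lay farther from the rest than Dixon's 95% limit allows; chance alone gives about 5 percent of groups. Ccl2 was at 5.77 CPM in RST day 21 replicate 2, against 1.98 to 2.53 CPM in the other day 21 libraries. Ccl3 was at 3.47 CPM in the same library, against 0.297 to 0.736 CPM. Ccl3 was at 0.0426 CPM in LST replicate 3 and Ccl4 at 0.0512 CPM in LST replicate 4, each a single count where the other LST libraries had 0. Any count beside libraries at 0 passes this limit, so the LST flags were fixed by the low counts. The number of flags thus cannot be read against that 5 percent.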

How the results depend on the processing

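The number of members passing changed by more than 1.5 times in these cases. In fits of the 2 groups alone it was 5 in place of 9 for RST day 21 against LST (Cx3cl1 lost its call, and Ccl12, Ccl3 and Ccl4 fell below the filter and were not tested), 4 in place of 2 for RST day 35 against LST, and 0 in place of 6 for RST day 35 against day 21 (Ccl12 not tested). Leaving out 1 replicate gave 0 to 7 for RST day 21 against day 14 (0 with all) and 0 to 7 for RST day 35 against day 21. For Implant against ContraImplant nodes it was 2 in DESeq2 on day 7, and 1 on each day with days averaged, an alternative chosen after seeing the data. No value turned its direction among the members that passed in any setting. Deviations from group means of same-numbered joint libraries correlated at 0.0924 to 0.678 for days 14 and 21. They correlated at 0.0829 to 0.191 for RST and LST on day 35, and in most other joint comparisons the lowest value was below 0. These values cannot show whether the replicate numbers pair the joint libraries. Scaling by library totals moved the median log2 change of all genes from 0.0858 to 0.610 on day 3, and to 0.707 on day 7, 0.327 on day 14 and 0.136 on day 21 against LST. At LST levels of 0 to 14 counts, depth limits what Ccl3, Ccl4 and Ccl12 can show on day 35.

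Counts over all genes moved further. For RST day 35 against LST they were 479, with 227 under library totals, 751 with no filter, 915 in the 2-group fit, 767 in DESeq2 and 182 to 544 leaving out 1 replicate. For RST day 21 against LST leaving out 1 gave 2502 to 4937 (4375 with all). For RST day 21 against day 14 they were 119, then 465, 570, 0 and 1163 in the same order, 372 with a replicate block and 2 to 4466 leaving out 1. For RST day 35 against day 21 they were 641, then 361, 1139, 0 and 1209, and 35 to 1884 leaving out 1.

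In nodes, Implant against NoImplant on day 7 had 8, with 5 under totals, 55 with no filter, 1105 in the 2-group fit, 711 in DESeq2, 3379 with days averaged and 0 to 4 leaving out 1. On day 14 it had 1094, with 620, 2400 and 3379 in the last 3 of these and 0 to 1557 leaving out 1. Implant against ContraImplant on day 7 had 131, with 231 with no filter, 19 with the replicate block, 0 in the 2-group fit, 1073 in DESeq2, 1045 with days averaged and 0 to 2030 leaving out 1. On day 14 it had 0, with 136 in the 2-group fit, 11 in DESeq2, 1045 with days averaged and 0 to 1 leaving out 1. DESeq2 gave 1 and 19 for ContraImplant against NoImplant on days 7 and 14 (0 in edgeR). Implant nodes between days had 0, then 178 in the 2-group fit and 39 in DESeq2. NoImplant nodes between days had 3, then 23 with no filter, 0 in the 2-group fit, 713 in DESeq2 and 0 to 327 leaving out 1. The change between days in the Implant difference from NoImplant had 0, and 3 in DESeq2. The mouse block changed no call of a member.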
